A study of Solanum lycopersicum with 18 samples.

Results

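Auxin response and transport genes were examined in tomato (Solanum lycopersicum) callus and roots after the anthocyanin regulators Rosea1 and Delila had been switched on. The genes were chosen by the words of their annotation, with earlier results of these data known. They are features whose description names auxin, SAUR, GH3, indole-3-acetic acid, IAA-amino acid or a PIN-like protein, leaving out descriptions with UDP or ethylene. The rule found 51 genes among the 5295 features of the authors' deposited table. All 6 groups carried the dexamethasone (DEX)-inducible system for Rosea1, a MYB factor, and Delila, a bHLH factor, both from snapdragon. The groups were uninduced callus, callus 3 h and 24 h after 10 mg/L DEX, uninduced roots, and roots 3 h and 24 h after the same dose, with 3 mRNA libraries in each. No label names a group that received DEX but lacked the transgenes, so what DEX or handling did cannot be told apart from what Rosea1 and Delila did. The sources used here do not give the cultivar, the promoter of the inducible system, the number of transgenic lines or the age of the plants.

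The table lists, for each feature, a fold change in 4 comparisons, each read here as DEX-treated against uninduced samples of the same tissue. Per the table's name, it is restricted to features with a false discovery rate of 0.05 and a 2-fold change somewhere. A gene that changed nowhere is therefore missing, and counts of auxin genes are not shares of the gene families. Here higher and lower mean a fold of at least 2 in the authors' deposited table in that comparison. A fold under 2 is given only as above or below 1, the uninduced level. The table was the only source, without values per library, so the depth, the replicate spread and which single folds were significant are unknown, and no test over samples was possible. Where 4 values follow one another without labels, they stand for callus 3 h, callus 24 h, root 3 h and root 24 h. The labelled tissues could not be checked against marker levels, because the table holds folds and not levels. In these bulk samples, fewer cells of a type and less RNA per cell cannot be told apart.

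Auxin is a plant hormone made from tryptophan that directs cell expansion, root growth and organ formation. It moves between cells through influx and efflux carriers, and it binds F-box receptors that send Aux/IAA repressors to degradation. Auxin response factors (ARFs), freed from these repressors, then act on early response genes such as SAUR, GH3 and Aux/IAA genes. Several GH3 enzymes in turn attach amino acids to auxin, which stores or inactivates it, and hydrolases of the conjugates release it again. In roots, carriers set the auxin gradient of the tip, and callus culture commonly depends on supplied auxin.

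As a whole, the auxin genes moved in both directions, at shares close to those of the other features in the table. In callus at 3 h, 12 of the 51 were higher and 15 lower, which is 23.5% and 29.4%, against 27.8% and 23.4% of all features. After 24 h in callus 9 were higher and 13 lower, or 17.6% and 25.5%, against 18.0% and 21.5% of all features. In roots at 3 h 14 were higher and 19 lower, or 27.5% and 37.3%, against 31.3% and 44.6%. Roots at 24 h had 6 higher and 10 lower, or 11.8% and 19.6%, against 11.7% and 21.9% of all features. The median log2 fold of the auxin genes was -0.37, -0.06, -0.62 and -0.12 across the comparisons. For all features it was 0 in callus at both times, -0.58 for root 3 h and -0.13 for root 24 h. The root columns thus lie below 1 for the table as a whole. With each column centred on its median, 18 auxin genes were higher and 7 lower in roots at 3 h, against 38.4% and 25.4% of all features, and 8 and 8 at 24 h, against 14.1% and 19.0%. The predominance of lower auxin genes in roots at 3 h therefore turned under centring.

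**Figure D1:**
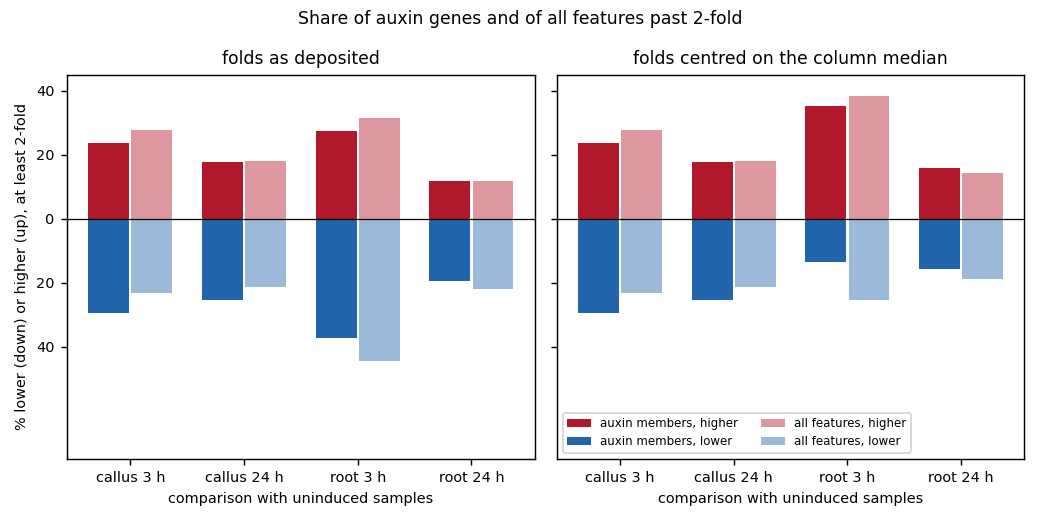
Percentage of the 51 auxin genes (full colour) and of all 5295 features (pale) at least 2-fold higher (upward bars) or lower (downward bars) in each comparison, with folds as deposited (left) and centred on the column median (right). In roots at 3 h the lower auxin genes make up 37.3% as deposited and 13.7% after centring, below all features in each case.

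The carriers were more often lower than higher in callus. Of 10 carriers in all, efflux and influx types together, 5 were lower and 0 higher in callus at 3 h, where 23.4% of all features were lower and 27.8% higher. At 24 h 5 were lower and 1 higher, against 21.5% and 18.0% of all features. In roots 4 were lower and 1 higher at 3 h, against 44.6% and 31.3% of all features. At 24 h in roots 3 were lower and 0 higher, against 21.9% and 11.7%. After centring 1 was lower and 1 higher in roots at 3 h, against 25.4% and 38.4% of all features. At 24 h 2 of the 10 were lower and 0 higher after centring, against 19.0% and 14.1%. Among them are 6 genes described simply as auxin efflux carrier or auxin efflux carrier protein, the family that in Arabidopsis comprises the PIN proteins, which export auxin from one side of the cell. All 6 lay below the uninduced level in callus at both times, where 48.0% of all features did at 3 h and 46.9% at 24 h, and 4 of the 6 were lower by at least 2-fold at each time. Their median log2 fold was -1.19 at 3 h and -1.45 at 24 h in callus. In roots it was -0.38 at 3 h and -0.89 at 24 h. There 1 and 3 of the 6 were lower, against 44.6% and 21.9% of all features. With the root columns centred these medians became 0.20 and -0.76, so the 3 h value changed sign. The lower genes were then 1 and 2 of the 6, against 25.4% and 19.0% of all features.

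Solyc06g059730 had the lowest fold of all auxin genes in callus at 3 h. The authors' deposited table lists this efflux carrier at 27.7-fold lower in callus at 3 h and 6.62-fold lower at 24 h, and at 1.32-fold below 1 and 2.73-fold lower in roots. It stood at rank 19 from the lowest among the 5295 features in callus at 3 h. For Solyc03g118740 the authors' deposited table gives 2.70-fold and 3.20-fold lower in callus, 1.14-fold above the uninduced level in roots at 3 h and 1.62-fold below it at 24 h. Solyc10g078370 had 2.43-fold and 3.65-fold lower values in callus and 1.29-fold and 1.16-fold below 1 in roots, in the authors' deposited table. Both were thus lower in callus at each time and under 2-fold in roots at each time, a difference between tissues that was not tested.

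Solyc10g080880 resembled them, at 1.91-fold and 2.32-fold below the uninduced level in callus and 1.25-fold and 1.27-fold above it in roots, in the authors' deposited table. Solyc07g006900 showed the other pattern, with its lowest values in roots. The authors' deposited table lists it at 3.69-fold lower in roots at 3 h and 8.25-fold lower at 24 h, against 1.78-fold and 1.64-fold below 1 in callus. Solyc04g007690 was 2.14-fold lower in callus at 3 h and 2.13-fold lower in roots at 24 h, and at 1.43-fold and 1.85-fold below 1 in callus at 24 h and roots at 3 h, in the authors' deposited table. Of these root values, only the 2.13-fold one dropped under 2-fold when the columns were centred.

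The other carriers did not follow the same course. A pair described as auxin efflux carrier family proteins lay above the uninduced level in callus at both times. Of these, Solyc03g031990 stood at 1.12-fold and 2.61-fold above it in callus and at 2.49-fold and 1.23-fold below it in roots, in the authors' deposited table. Solyc02g082450 was 2.64-fold higher in roots at 3 h, with 1.02-fold, 1.33-fold and 1.20-fold above 1 in the other comparisons, in the authors' deposited table. The auxin transporter-like proteins carry an amino acid transporter domain, as the AUX1 and LAX influx carriers of Arabidopsis do. Solyc11g013310 was 3.35-fold lower in callus at 3 h and 2.96-fold lower in roots at 3 h, and only 1.04-fold and 1.57-fold below 1 at 24 h, in the authors' deposited table. Solyc10g076790 had its lowest value later, at 5.20-fold lower in callus at 24 h after 1.21-fold below 1 at 3 h, and 2.90-fold and 1.86-fold below 1 in roots, in the authors' deposited table. The root 3 h values of this pair and of Solyc03g031990 came under 2-fold with the column centred.

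**Figure D2:**
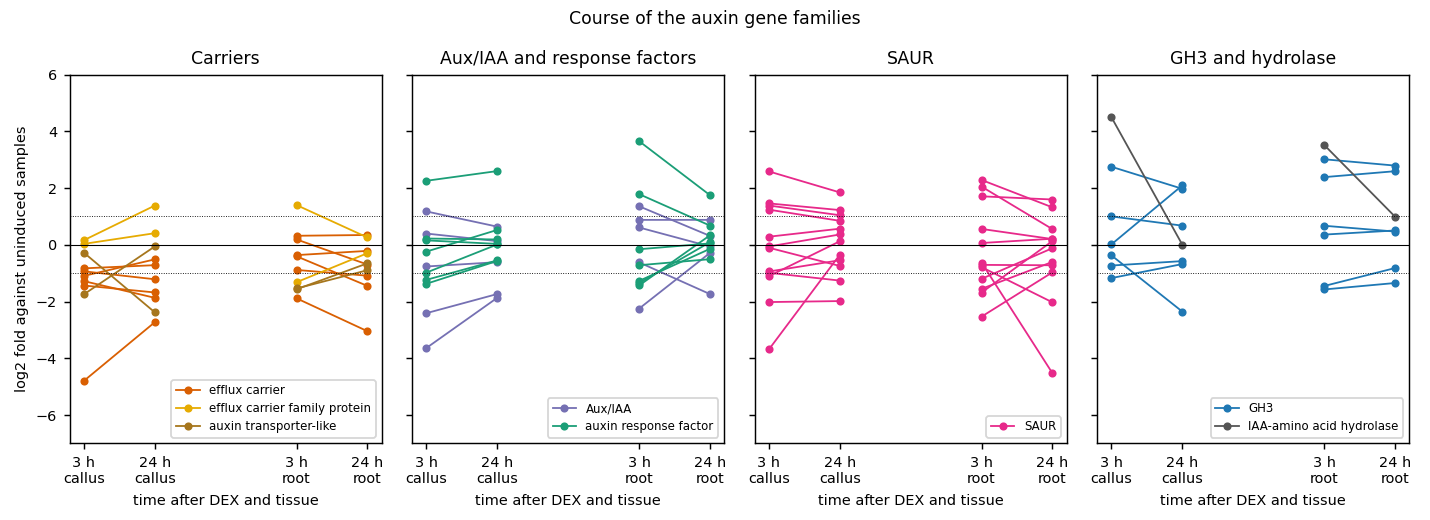
Log2 fold against uninduced samples (y axis) at 3 h and 24 h in callus and roots (x axis) for carriers, Aux/IAA genes and response factors, SAUR genes, and GH3 genes with the conjugate hydrolase. Each line joins the values of 1 gene within a tissue, dotted lines mark 2-fold, and the 6 genes drawn as efflux carriers, apart from the pair of family proteins, lie below 0 in callus at both times.

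On the perception side, only 1 receptor-type gene was in the table. The auxin F-box protein 5 Solyc06g008810, named for an auxin receptor, was 2.76-fold lower in roots at 3 h, and it stood at 1.85-fold below, 1.13-fold above and 1.42-fold below the uninduced level in the other comparisons, in the authors' deposited table. Its root 3 h value was under 2-fold with the column centred.

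The Aux/IAA genes split by gene and by tissue. By their annotated domain 5 members are Aux/IAA proteins, including Solyc03g120380 and Solyc06g066020, which the table describes as auxin response factor 9 but for which it lists an AUX/IAA domain and no ARF domain. Of the 5, 2 were lower in callus at each time, against 23.4% and 21.5% of all features. The pair described as response factors was lower there at both times, and the 3 described as auxin responsive proteins were not. Solyc03g120380 stood at 12.4-fold and 3.64-fold lower in callus, at 1.53-fold above 1 in roots at 3 h and at 1.04-fold below 1 at 24 h, in the authors' deposited table. With the columns centred, its root 3 h value was past 2-fold and higher, opposite to callus. Solyc06g066020 was 5.31-fold and 3.33-fold lower in callus, 1.54-fold below 1 in roots at 3 h and 3.33-fold lower at 24 h, in the authors' deposited table.

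Of the remaining Aux/IAA genes, Solyc09g083290 had its lowest value in roots at 3 h. The authors' deposited table lists it at 4.76-fold lower there and at 1.22-fold below 1 in roots at 24 h, with 1.70-fold and 1.53-fold below 1 in callus. Solyc03g120390 was 2.56-fold higher in roots at 3 h and stood at 1.32-fold, 1.09-fold and 1.24-fold above 1 in the other comparisons, in the authors' deposited table. Solyc06g053840 was 2.26-fold higher in callus at 3 h, and at 1.56-fold in callus at 24 h and 1.84-fold above 1 in roots at both times, in the authors' deposited table. In roots at 3 h the 5 genes thus had 1 member past 2-fold in each direction. Among all features 31.3% were higher and 44.6% lower there. After centring 1 of the 5 was lower and 3 higher, against 25.4% and 38.4% of all features.

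The other 7 genes described as response factors had, after 3 h, 1 member higher and 2 lower in callus, and 2 higher and 3 lower in roots. In callus that is 14.3% and 28.6%, against 27.8% and 23.4% of all features, and in roots 28.6% and 42.9%, against 31.3% and 44.6%. Described as auxin response factor 24 and listed with only a B3 domain, which ARFs share with other plant transcription factor families, Solyc09g010230 was higher in every comparison. The authors' deposited table gives 4.78-fold, 6.06-fold, 12.6-fold and 3.36-fold. Of the other 6 response factors, none was past 2-fold in callus or roots at 24 h in either direction. For callus at 3 h the authors' deposited table lists the ARF3-type Solyc09g007810 at 2.59-fold lower and the ARF16 gene Solyc06g075150 at 2.35-fold lower. ARF3 in Arabidopsis acts in organ polarity, and ARF16 there acts in the root cap. Neither was past 2-fold in roots at 3 h, at 1.65-fold and 1.11-fold below 1 in the authors' deposited table.

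In roots at 3 h 4 others of these response factors were past 2-fold. The authors' deposited table lists the ARF4 gene Solyc11g069190 at 2.70-fold lower, the ARF9 gene Solyc08g008380 at 2.55-fold lower and the ARF3 gene Solyc02g077560 at 2.42-fold lower. All 3 came under 2-fold with the column centred. By 24 h in roots they stood at 1.26-fold above, 1.07-fold above and 1.10-fold below the uninduced level in the authors' deposited table. The other ARF3-type gene, Solyc11g013480, was 3.45-fold higher in roots at 3 h and 1.60-fold above 1 at 24 h, with 1.11-fold and 1.02-fold in callus, in the authors' deposited table. Genes annotated as the same ARF type thus differed in direction, the 3 ARF3-type genes included.

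**Figure D3:**
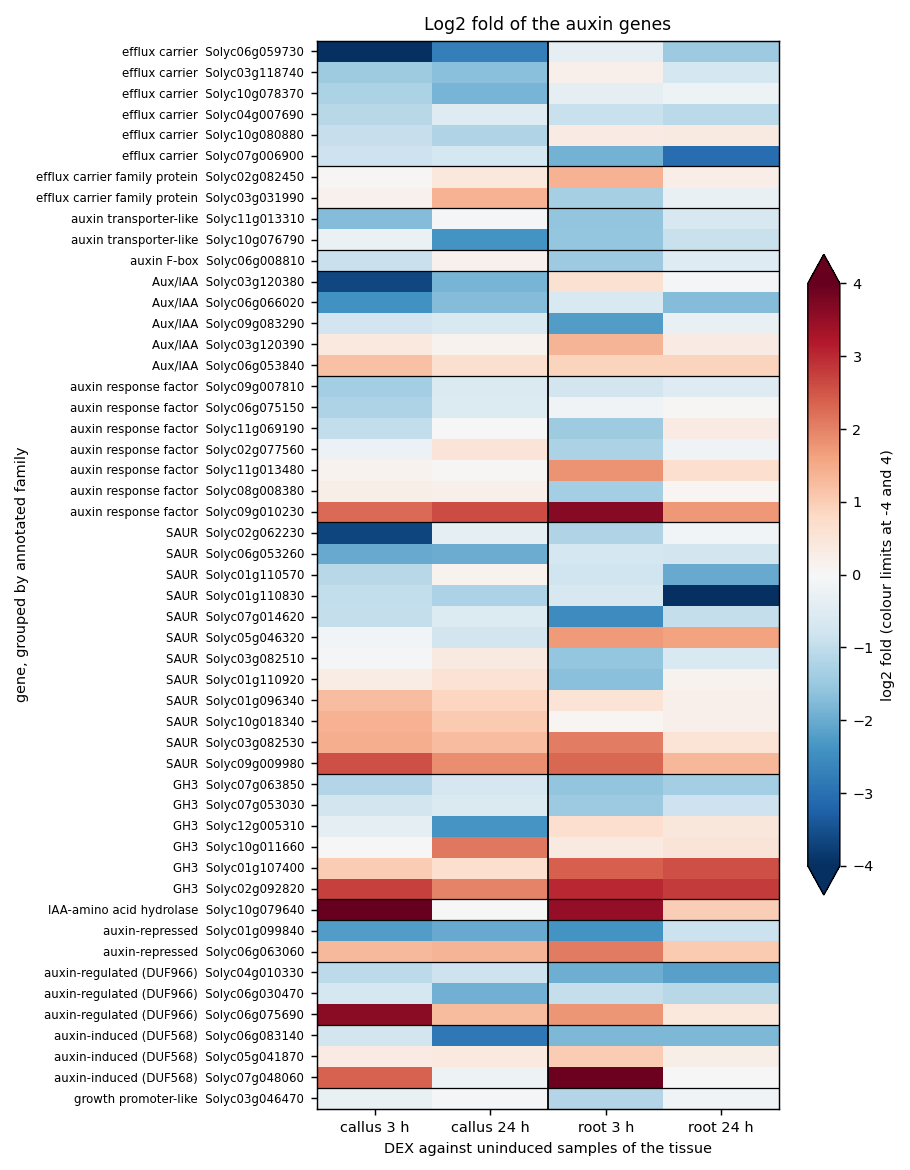
Log2 fold of all 51 auxin genes (rows, grouped by annotated family and ordered by the callus 3 h value) in the 4 comparisons with uninduced samples (columns), with red for higher and blue for lower and colours limited to -4 and 4. The 6 genes described as auxin efflux carriers, family proteins not included, are blue throughout callus, and the response factor Solyc09g010230 and the GH3 gene Solyc02g092820 are red in every column.

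SAUR genes, small early auxin response genes of which several promote cell expansion in Arabidopsis, lay on both sides of the uninduced level in every comparison. The description names 9 of them, and 3 described as auxin-responsive family proteins carry the same SAUR domain. Of these 12 in callus, 4 were higher and 3 lower at 3 h, which is 33.3% and 25.0%, against 27.8% and 23.4% of all features. At 24 h in callus it was 3 and 2, or 25.0% and 16.7%, against 18.0% and 21.5%. In roots 3 were higher and 4 lower at 3 h, or 25.0% and 33.3%, against 31.3% and 44.6%, and 2 and 2 at 24 h, or 16.7% each, against 11.7% and 21.9%. These shares are near those of the table. With the columns centred it was 4 higher and 2 lower in roots at 3 h, against 38.4% and 25.4% of all features. At 24 h it was 2 and 2, against 14.1% and 19.0%.

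Solyc09g009980 was higher in every comparison. The authors' deposited table puts it at 6.00-fold, 3.59-fold, 4.87-fold and 2.50-fold. Solyc03g082530 was 2.75-fold and 2.34-fold higher in callus and 4.14-fold higher in roots at 3 h, and 1.47-fold above 1 in roots at 24 h, in the authors' deposited table. Solyc05g046320 was higher in roots, at 3.27-fold and 3.02-fold, while the authors' deposited table puts it at 1.08-fold and 1.68-fold below 1 in callus. Solyc10g018340 was higher in callus and under 2-fold in roots. The authors' deposited table lists it at 2.61-fold and 2.06-fold in callus and at 1.05-fold and 1.16-fold above 1 in roots. Solyc01g096340 was 2.36-fold higher in callus at 3 h, with 1.80-fold, 1.47-fold and 1.15-fold above 1 in the other comparisons in the authors' deposited table.

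On the lower side, the SAUR genes with the lowest values differed between tissues and times. Solyc02g062230 stood at 12.8-fold lower in callus at 3 h and at 1.27-fold below 1 at 24 h, with 2.30-fold and 1.09-fold below 1 in roots, in the authors' deposited table. Solyc06g053260 was lower in callus at both times, at 4.05-fold and 3.95-fold, and at 1.63-fold and 1.65-fold below 1 in roots in the authors' deposited table. Solyc01g110830 had the lowest root 24 h value of all auxin genes, rank 43 from the lowest among all features. The authors' deposited table lists it at 23.1-fold lower there. At the other times it was at 1.55-fold below 1 in roots and 1.98-fold and 2.40-fold below 1 in callus, in the authors' deposited table. The last 4 SAUR genes had their lowest values in roots. Solyc01g110570 stood at 4.08-fold lower in roots at 24 h, Solyc07g014620 at 5.78-fold lower in roots at 3 h, Solyc01g110920 at 3.21-fold and Solyc03g082510 at 2.93-fold lower at that time, in the authors' deposited table. The Solyc03g082510 value, and the root 3 h value of Solyc02g062230, were under 2-fold with the column centred.

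GH3 genes, of whose enzymes several join auxin to amino acids, held members on either side of the uninduced level in every comparison. Of the 6, 2 were higher and 1 lower at each time of callus and in roots at 24 h, and 2 were higher and 2 lower in roots at 3 h. With 6 genes, 2 are 33.3%, against 27.8%, 18.0%, 31.3% and 11.7% of all features higher in the 4 comparisons. For the lower genes 1 of 6 is 16.7% and 2 are 33.3%, against 23.4%, 21.5%, 44.6% and 21.9% of all features. After centring 3 were higher and 0 lower in roots at 3 h, against 38.4% and 25.4% of all features. Solyc02g092820, described as an indole-3-acetic acid-amido synthetase GH3.8, was higher in every comparison. The authors' deposited table gives it 6.73-fold, 3.93-fold, 8.08-fold and 6.92-fold, the last being the highest root 24 h fold of any auxin gene. Solyc01g107400, of the same description, stood at 5.22-fold and 6.03-fold in roots and at 2.00-fold and 1.60-fold in callus, in the authors' deposited table. Its callus 3 h value lies exactly on the threshold used here.

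Another pair with the GH3.8 description lay below the uninduced level throughout. Solyc07g063850 stood at 2.25-fold and 1.60-fold below 1 in callus and at 2.98-fold and 2.54-fold lower in roots, in the authors' deposited table. Solyc07g053030 was 2.74-fold lower in roots at 3 h and between 1.49-fold and 1.77-fold below 1 in the other comparisons, in the authors' deposited table. Genes under 1 description thus split by direction, with the same sides in both tissues. The remaining GH3 genes moved in callus at 24 h, in opposite directions. Solyc10g011660 stood at 4.27-fold higher there and at 1.01-fold at 3 h, and Solyc12g005310 at 5.12-fold lower there and 1.30-fold below 1 at 3 h, in the authors' deposited table. Neither was past 2-fold in roots as deposited.

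The single IAA-amino acid hydrolase, an enzyme type that frees auxin from its conjugates, was high early. Solyc10g079640 stood at 22.5-fold in callus at 3 h, the highest of the auxin genes there and rank 53 from the highest among all features, and at 11.5-fold in roots at 3 h, in the authors' deposited table. At 24 h the authors' deposited table lists it at exactly 1 in callus and at 1.99-fold in roots. A value of exactly 1 is listed for 348 features in that column, and the reads behind it were not analysed here, so the callus values of this gene are uncertain. The GH3 gene Solyc02g092820, of the enzyme type that makes conjugates, and this hydrolase, of the type that breaks them, were thus both higher at 3 h in each tissue.

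Other genes named for auxin in their description also split within their small families. The auxin-repressed proteins, which share a dormancy-associated domain, lay on opposite sides in each comparison. Solyc01g099840 was 4.68-fold and 4.02-fold lower in callus and 5.30-fold lower in roots at 3 h, with 1.82-fold below 1 in roots at 24 h, in the authors' deposited table. Solyc06g063060 was 2.47-fold and 2.59-fold higher in callus and 4.23-fold and 2.05-fold higher in roots, in the authors' deposited table. It is 1 of 4 auxin genes higher in all comparisons, with Solyc09g010230, Solyc09g009980 and Solyc02g092820, and 0 were lower in all. Of all features 4.17% were higher and 3.87% lower in all comparisons. After centring, the same 4 genes were higher in all and 0 lower, against 5.17% and 2.7% of all features. The times of a tissue share uninduced samples, so these counts are given as a description only.

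The auxin-regulated proteins with the DUF966 domain had 1 member above and 2 below the uninduced level in each comparison. Solyc06g075690 stood at 12.1-fold and 2.42-fold higher in callus and at 3.44-fold higher and 1.33-fold above 1 in roots, in the authors' deposited table. Solyc04g010330 was lower in roots, at 3.86-fold and 4.55-fold, and stood at 2.05-fold and 1.77-fold below 1 in callus in the authors' deposited table. Solyc06g030470 was 3.81-fold lower in callus at 24 h and 2.17-fold lower in roots at 24 h, with 1.65-fold and 1.94-fold below 1 at 3 h, in the authors' deposited table. Its root 24 h value came to 1.98-fold with the column centred, under the threshold.

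Solyc07g048060, an auxin-induced protein-like gene with a DUF568 domain, was higher at 3 h and not at 24 h in each tissue. It had the highest root 3 h value of all auxin genes, at 15.0-fold, and 5.17-fold in callus at 3 h, in the authors' deposited table. At 24 h it stood 1.15-fold below the uninduced level in callus and 1.01-fold below it in roots, in the authors' deposited table. Its relative Solyc06g083140, described as auxin-induced in root cultures protein 12, had the lowest callus 24 h value, at 7.22-fold lower after 1.67-fold below 1 at 3 h, in the authors' deposited table. In roots it is listed at 3.51-fold lower at both times in the authors' deposited table. The same fold other than 1 at both times is listed for 10 root features. The reads behind it were not analysed here, so the root values of this gene are uncertain. Solyc05g041870, with the same domain, stood at 2.02-fold in roots at 3 h and between 1.18-fold and 1.32-fold above 1 elsewhere, in the authors' deposited table. The auxin-independent growth promoter-like Solyc03g046470 was 2.25-fold lower in roots at 3 h and between 1.03-fold and 1.22-fold below 1 elsewhere, in the authors' deposited table. Its root 3 h value was under 2-fold with the column centred.

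Callus and roots share no samples, so their lists can be compared. At 3 h 9 auxin genes were higher in both tissues, which is 75.0% of those higher in callus and 64.3% of those higher in roots. For all features these shares were 55.9% and 49.7%, and 15.5% of the table was higher in both. Lower in both at 3 h were 5 genes, 13.7% of the table being so, which is 33.3% of the callus list and 26.3% of the root list, against 58.6% and 30.8% of the lists of all features. Another 10 auxin genes were lower in callus and not lower in roots at 3 h, or 19.6% of the 51 against 9.69% of all features. Among these were 4 efflux carriers, both Aux/IAA genes described as ARF9, and the response factors Solyc09g007810 and Solyc06g075150. With the columns centred 11 were higher in both at 3 h, against 20.8% of all features, 2 lower in both, against 9.07%, and 13 lower in callus and not lower in roots, or 25.5% against 14.4%. At 24 h 4 were higher in both and 5 lower in both, against 6.52% and 10.6% of all features. Lower in callus and not lower in roots at 24 h were 8, or 15.7% of the 51, and 9 after centring. The share of all features for this was not counted at 24 h. The reverse, lower in roots and not lower in callus, was counted at neither time. These counts therefore cannot show whether lower values in 1 tissue alone were commoner in callus. At each time 0 auxin genes were higher in one tissue and lower in the other, against 3.66% of all features at 3 h and 1.91% at 24 h. With the columns centred 1 did so at 3 h, Solyc03g120380, against 3.64%. No test over samples bears on these shares, and with 51 genes each gene makes up much of a difference.

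**Figure D4:**
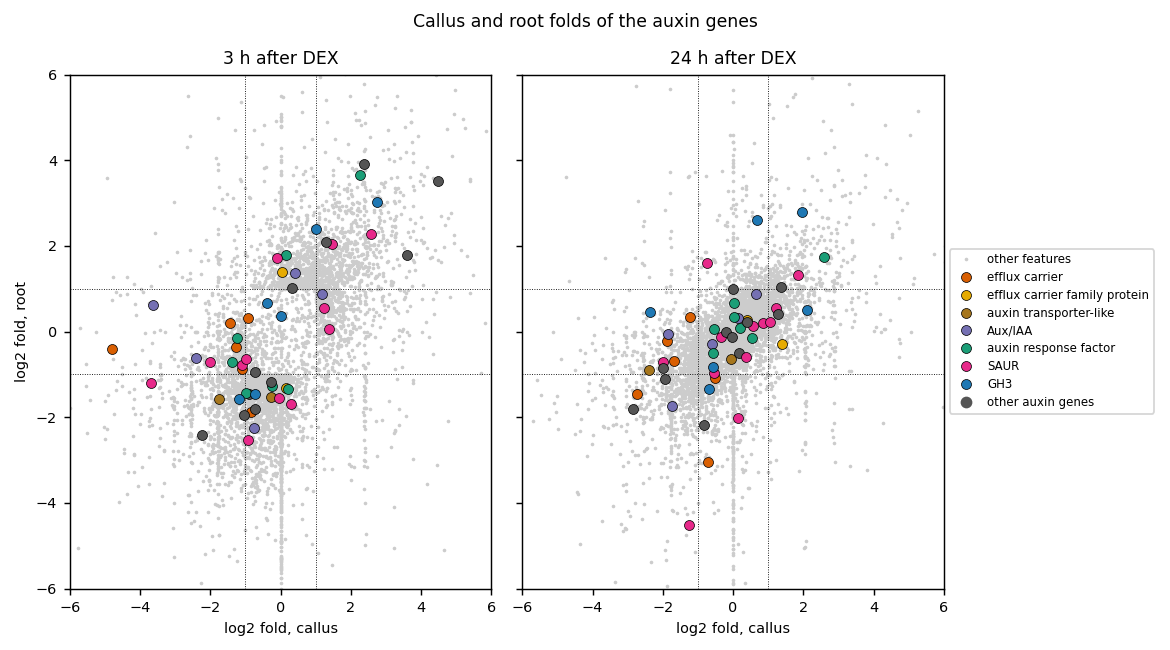
Log2 fold in callus (x axis) and in roots (y axis) at 3 h (left) and 24 h (right) for the auxin genes, coloured by family, and for the other features in grey, with dotted lines at 2-fold. Axes end at -6 and 6, which leaves out 53 and 64 features, of which 0 are auxin genes, and none of the coloured points lies past 2-fold in opposite directions.

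Dividing the 24 h fold by the 3 h fold compares the induced times with each other, since the uninduced samples cancel. In callus 8 auxin genes had a ratio of at least 2 and 7 a ratio of at most 1/2, against 15.0% and 19.8% of all features. In roots 10 had a ratio of at least 2 and 14 at most 1/2, against 26.0% and 23.0% of all features, and 5 and 18 with the columns centred, against 16.7% and 35.3%. The SAUR gene Solyc02g062230 had the highest ratio in callus, 10.1, and the hydrolase the lowest, 0.0445, from the authors' deposited table. The hydrolase ratio rests on its fold of exactly 1 in callus at 24 h, so it is uncertain. In roots the ratios from the authors' deposited table reached down to 0.0662 for Solyc07g048060 and 0.0671 for Solyc01g110830, the first from far above to near the uninduced level and the second from near to far below it. The highest root ratio was 3.90, for the Aux/IAA gene Solyc09g083290, from the authors' deposited table. The GH3 genes Solyc02g092820 and Solyc01g107400 were close to level in roots, at 0.857 and 1.16 from the authors' deposited table.

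Genes of the auxin pathway whose descriptions lie outside the rule were few among the selected features. Words for YUCCA-type flavin monooxygenases and tryptophan aminotransferases, which make auxin, and for TOPLESS, PINOID, LAZY, transport inhibitor response and ABC transporter B family proteins matched 0 features, as did tryptophan and anthranilate synthases. This says only that none passed the authors' selection under such a description. The word nitrilase matched only a nitrilase-associated protein, Solyc08g081470, whose description gives it no place in the auxin pathway. Solyc08g081470 was 2.86-fold lower in callus at 3 h and 2.27-fold lower in roots at 3 h in the authors' deposited table. Its root value was under 2-fold with the column centred. LOB domain factors, some of which act downstream of ARFs in Arabidopsis lateral root formation, numbered 12. In callus 2 of them were higher and 7 lower after 3 h, or 16.7% and 58.3%, against 27.8% and 23.4% of all features. After 24 h 2 were higher and 4 lower, or 16.7% and 33.3%, against 18.0% and 21.5%. In roots 6 were higher and 3 lower at 3 h, or 6 and 3 of 12, against 31.3% and 44.6%, and 1 higher and 4 lower at 24 h, or 8.33% and 33.3%, against 11.7% and 21.9%. Solyc06g075330 had the highest value, 11.4-fold in roots at 3 h against 2.19-fold lower in callus, and Solyc03g063140 the lowest, 12.4-fold lower in callus at 24 h, in the authors' deposited table.

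Marker lists for cell types moved in the same samples. Of 17 extensin or root hair features 16 were lower in roots at each time, or 94.1%, against 44.6% and 21.9% of all features. In callus 0 were lower and 3 higher at 3 h, and 3 lower and 4 higher at 24 h. Only 3 of the 17 lay above 1 and 4 below it in callus at 3 h, and 4 and 4 at 24 h. The rest are listed at exactly 1 there, so the callus values of this list are uncertain. The 3 root cap features had 2 lower in roots at 3 h and 3 at 24 h. In callus they had 0 lower and 1 higher at 3 h, and 2 lower and 0 higher at 24 h. Of all features in callus, 23.4% were lower and 27.8% higher at 3 h, and 21.5% and 18.0% at 24 h. Histone and cyclin features had 52 of 60 lower in roots at 3 h and 32 at 24 h, or 86.7% and 53.3%. Of all features 44.6% and 21.9% were lower there. In roots 6 and 3 of the 60 were higher, against 31.3% and 11.7% of all features. In callus 8 and 27 of the 60 were lower, against 23.4% and 21.5% of all features, and 3 and 4 were higher. The 8 at 3 h are 13.3%, below the share of all features, and the 27 at 24 h lie above it. Centring brought the lower counts in roots to 39 and 27 of the 60, against 25.4% and 19.0% of all features. Green tissue features had 42 of 46 lower and 0 higher in roots at 3 h, where 44.6% of all features were lower. At 24 h in roots 33 were higher and 0 lower, where 11.7% of all features were higher. In callus they had 21 lower and 1 higher at 3 h and 2 lower and 16 higher at 24 h. After centring, 33 green tissue, 13 extensin or root hair and 2 root cap features were lower in roots at 3 h. There 25.4% of all features were lower. At 24 h 38 green tissue features were higher in roots after centring, against 14.1% of all features. The part of cell composition in the auxin gene values was not tested.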

How the data were processed

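Stranded mRNA libraries were sequenced from both ends, per the labels' protocols, and the submitters' processing notes list CASAVA 1.8.1. The 18 libraries fall into 6 groups of 3. The labels do not say whether replicates came from separate plants or cultures. Per the file headers, the authors deposited for each comparison the fold change written by CLC bio software as a signed score, a linear ratio of the same size, and the log10 of that ratio. Neither header nor label names an aligner, a genome build, a counting method or a normalization. Since the headers leave the reference unnamed, it was taken to be the tissue's uninduced samples, because both transgenes stood far above 1 throughout. The 2 deposited files differed by 0 in their signed folds, and 0 features had a largest fold under 2.

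Members were matched by words in the description, cut before its source and domain notes. Families follow words in the description, and the listed protein domain where the text says so, which was chosen after the table was seen. Log2 folds, counts, medians and 24 h to 3 h ratios were computed with Python 3.11.15, numpy 2.4.6 and pandas 2.3.3 and plotted with matplotlib 3.10.9, and the counting was tested on simulated data. The planned tests on counts or log values needed values per library and were not used. Named genes were to be all carriers, receptors, ARF, GH3 and hydrolase genes, the 6 highest and 6 lowest per comparison and those higher or lower in all, and the text also gives the other members. The members and lists were chosen with earlier results of these data known. The supplied RefSeq gene table matched 0 identifiers, so positions and sequences are not given. Depth is unknown, so no interval could be given.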

Additional observations from a re-analysis of the deposited data

How the results depend on the processing

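Of 62 values recomputed under alternatives, 39 stayed within 1.5 times the count, or within 0.1 of the log2 median, and 23 did not. In the order callus 3 h, callus 24 h, root 3 h and root 24 h, a 4-fold threshold left 6, 2, 8 and 2 auxin genes higher and 6, 5, 3 and 4 lower. A 1.5-fold threshold raised the lower genes to 25 for callus 3 h and 18 for root 24 h. Centring on the median of all features took the lower genes in roots at 3 h from 19 to 7, the root medians at 3 h and 24 h to -0.038 and 0.016, the root genes with a 24 h to 3 h ratio of at least 2 from 10 to 5, and the genes opposite in callus and roots at 3 h from 0 to 1. Removing genes with an exact or repeated fold, 1 in each tissue, moved the 3 h median from -0.37 to -0.55 for callus and from -0.62 to -0.51 for roots. Keeping the 39 genes of the named auxin families gave 9 higher genes in roots at 3 h, and 3 h medians of -0.73 in callus and -0.40 in roots. With a ratio threshold of 4, 3 genes remained past it upward in callus, 0 upward in roots and 3 downward in roots. What lay behind each move was not tested. No paired analysis was possible because the table holds no values per library, and leaving out replicates was not run for the same reason. The depth behind each fold is unknown.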

Other observations

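Neighbouring auxin genes lay on opposite sides of the uninduced level in some comparisons and on the same side in others. Identifiers of this annotation carry the chromosome and the order along it, and 2 pairs of members lie within 5 steps of each other on chromosome 3. The Aux/IAA genes Solyc03g120380 and Solyc03g120390 have consecutive identifiers, and in callus at 3 h the first stood at 12.4-fold lower and the second at 1.32-fold above the uninduced level in the authors' deposited table. The SAUR genes Solyc03g082510 and Solyc03g082530 stood at 2.93-fold lower and 4.14-fold higher in roots at 3 h in the authors' deposited table. The first pair lay on the same side in roots at 3 h, at 1.53-fold and 2.56-fold above 1 in the authors' deposited table. In callus at 24 h the second pair did so, at 1.29-fold and 2.34-fold above 1 in the authors' deposited table. The 51 genes lie on 12 chromosomes, with 10 on chromosome 6 and 7 on chromosome 3.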
